A study of Homo sapiens with 16 samples.

Results

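The genes described here encode the kinases that sit between the TWEAK receptor and NF-κB, with the scaffold of the IκB kinase complex. They are MAP3K14 (NIK), MAP3K7 (TAK1), RIPK1, CHUK (IKKα), IKBKB (IKKβ), IKBKG (NEMO), IKBKE (IKKε) and TBK1. They were chosen by gene symbol, and all 8 of 8 were found among the 61806 genes of the table and passed the filter on low counts that left 16029 genes for testing. Transcripts were measured by poly(A) RNA sequencing in LX-2, an immortalised line derived from human hepatic stellate cells, the collagen-producing pericytes of the liver. There were 4 groups of 4 libraries. The first was wild-type LX-2 given TWEAK, the ligand of Fn14, at 100 ng/mL for 2 h (TWEAK). The second was an LX-2 line in which the Fn14α isoform had been knocked out with CRISPR/Cas9 (Fn14α KO), and the third was a line with a CRISPR/Cas9 knockout of all Fn14 (Fn14 KO). The last was wild-type LX-2 (WT). The knockout lines and WT were given PBS, the vehicle of TWEAK, so no knockout cells received the ligand. All cells had first been cultured for 24 h in a reduced-serum medium. The series design calls the libraries of a group biological replicates, and no source used here says what separated them, so the p-values measure the spread between these samples, which may be technical. Each knockout is a cell line of its own, and no source used here says if it grew from 1 clone or was kept as a mixed population.

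NF-κB is activated along a pair of routes that use these genes differently. In the canonical route RIPK1 and TAK1 are brought to a receptor by ubiquitin chains, and TAK1 phosphorylates the IKK complex of IKKα, IKKβ and NEMO, which then marks the inhibitor IκBα for destruction. In the non-canonical route, for which Fn14 is a known trigger, NIK is held at a very low protein level by a TRAF2, TRAF3 and cIAP ubiquitin ligase, accumulates when that ligase is lost, and drives IKKα to process the NFKB2 product. IKKε and TBK1 are related kinases best known for switching on interferon genes. Much of the control of these proteins is after transcription, and the values below are of messenger RNA only, summed over the isoforms of each gene.

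The libraries held 13335919 to 15846385 counts in TWEAK, 13741703 to 15300005 in Fn14α KO, 14092328 to 16417325 in Fn14 KO and 14273840 to 16888606 in WT. TNFRSF12A, which encodes Fn14, averaged 130 ± 7.07 FPKM (counts scaled by gene length and library total) in TWEAK, 59.3 ± 6.43 in Fn14α KO, 33.6 ± 2.77 in Fn14 KO and 128 ± 6.29 in WT (SD, n = 4 each). Relative to WT its log2 fold change was -1.14 ± 0.08 in Fn14α KO (SE, edgeR adjusted p = 2.16e-11) and -1.81 ± 0.08 in Fn14 KO (edgeR adjusted p = 2.85e-15), which follows the labels, although a count per gene cannot separate the Fn14 isoforms. Of the stellate cell markers, LRAT and GFAP lay under 0.1 FPKM in every group, and the summed level of the list was 952 to 1030 FPKM in TWEAK, 615 to 632 in Fn14α KO, 1140 to 1220 in Fn14 KO and 761 to 804 in WT. Hepatocyte, endothelial and leukocyte lists summed to no more than 3.12, 0.54 and 2.1 FPKM in any library, and the cholangiocyte list to between 5.19 and 12.8 FPKM. The part of these marker differences in the results below was not tested. WT replicate 4 and Fn14 KO replicate 1 stood apart from the other libraries of their groups in earlier work on these data, and results that rest on them are given with and without them. Whole chromosomes differed between the lines, with the median tested gene of chromosomes 12 and X at -0.48 and -0.69 on the log2 scale in Fn14α KO, so each member's difference is given beside the median of its nearest tested neighbours, up to 50 on each side. The neighbours of TNFRSF12A had medians of -0.26 in Fn14α KO and 0.05 in Fn14 KO. With these removed, TNFRSF12A was at -0.88 and -1.86 (edgeR adjusted p = 2.99e-09 and 2.02e-15). In bulk RNA, a change in the make-up of the culture and a change in RNA per cell cannot be told apart.

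Per length, the genes kept a similar order of levels in every group. MAP3K7 was the highest at 11.7, 10.7, 14.0 and 12.1 FPKM in TWEAK, Fn14α KO, Fn14 KO and WT, and no library of another member reached it. IKBKG was the lowest at 1.61, 0.95, 1.78 and 1.68 FPKM, with RIPK1 next above it. CHUK and IKBKB lay beside each other in all 4 groups and their libraries overlapped in each. IKBKB was the higher of the pair in TWEAK and Fn14 KO, and CHUK in Fn14α KO and WT. Among the genes that changed place was MAP3K14. It was second in TWEAK and in Fn14 KO, with no library overlapping that of IKBKB below it. In Fn14α KO and in WT it stood below CHUK and IKBKB, and in WT its libraries overlapped those of IKBKB. IKBKE lay above TBK1 in TWEAK and Fn14 KO and below it in Fn14α KO and WT. The libraries of IKBKE and TBK1 overlapped in every group but Fn14α KO.

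**Figure D1:**
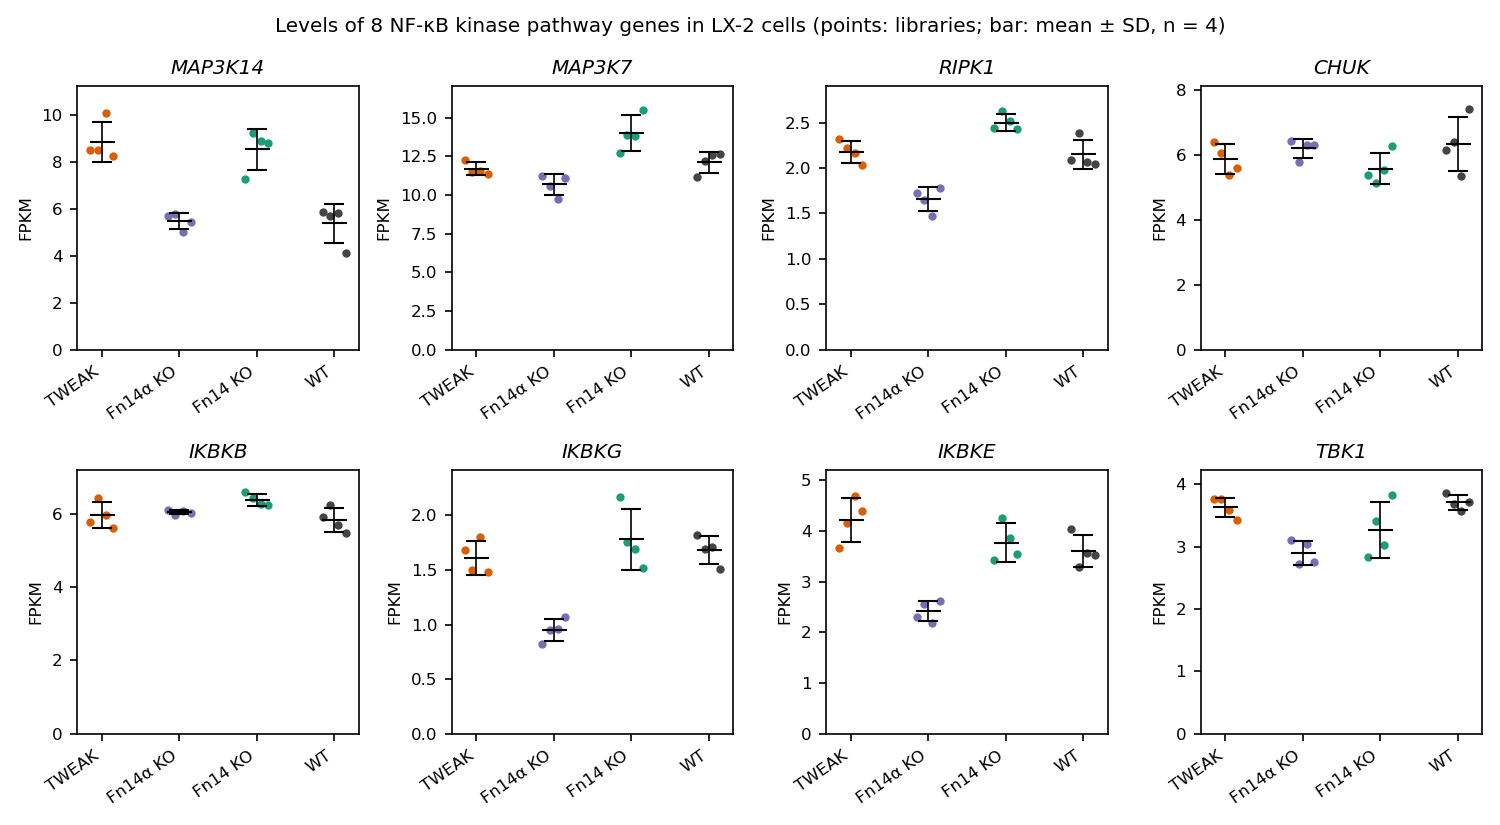
FPKM (vertical axis, from 0) of each of the 8 genes in the 4 libraries of TWEAK, Fn14α KO, Fn14 KO and WT, with points for libraries and bars for the mean ± SD. MAP3K14 stands at 8.85 and 8.55 FPKM in TWEAK and Fn14 KO against 5.38 in WT, while RIPK1, IKBKG, IKBKE and TBK1 are lowest in Fn14α KO.

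After TWEAK, 1 of the 8 genes passed the test at a false discovery rate of 0.05, and it rose: MAP3K14. Across all genes tested, 6.87% were called in this comparison, 4.82% higher and 2.05% lower. At an unadjusted p under 0.05, 2 members passed, both higher, and DESeq2 likewise called 1. In Fn14α KO 5 members were called and all 5 fell (MAP3K7, RIPK1, IKBKG, IKBKE and TBK1), against a background of 42.2% of all genes called, 20.0% higher and 22.2% lower. In Fn14 KO 4 members were called and all 4 rose (MAP3K14, MAP3K7, RIPK1 and IKBKB), of which 3 were called with total-count scaling, against a background of 52.9%, 26.6% higher and 26.3% lower. Between the lines, Fn14 KO was higher than Fn14α KO for 7 members, every one but CHUK, of which 5 were called with total-count scaling, against a background of 59.2%, 30.7% higher and 28.5% lower. The median log2 fold change of the members was 0.06, -0.30, 0.22 and 0.64 in these comparisons, against -0.01, 0.01, -0.01 and -0.00 over all genes tested. The 3 comparisons with WT share the WT libraries, and the 2 that involve each knockout share its libraries.

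**Figure D2:**
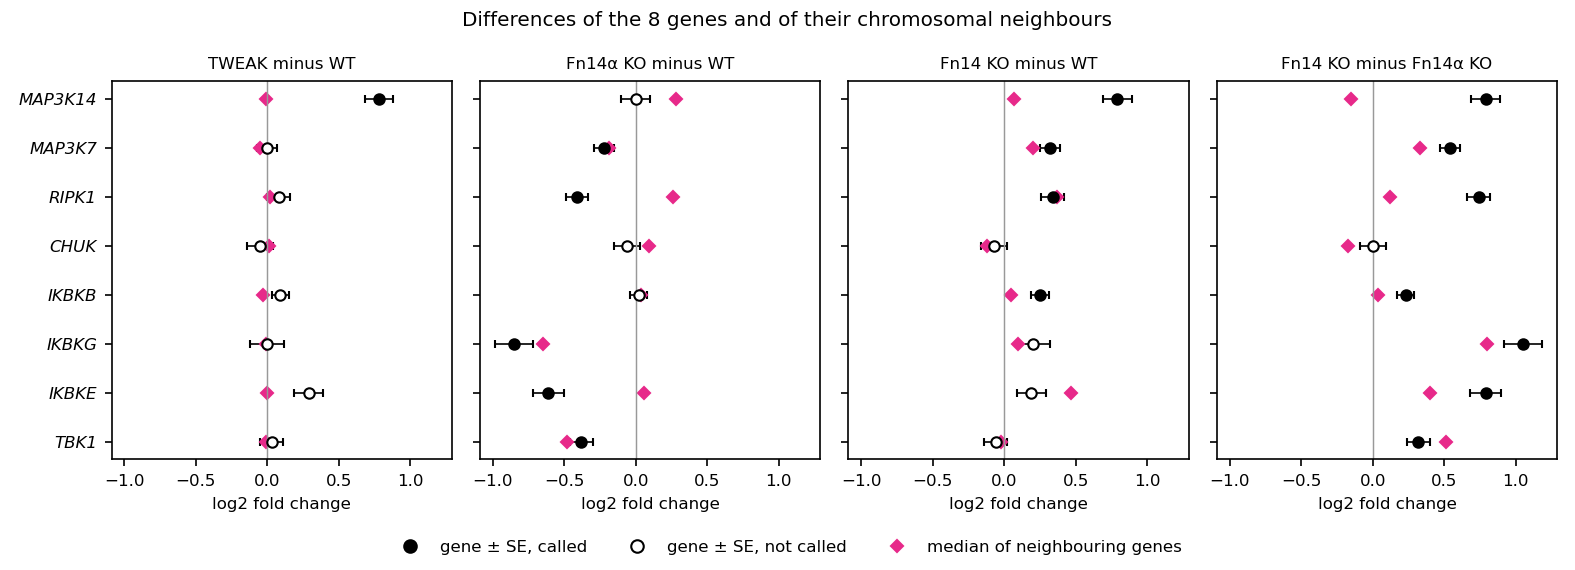
Log2 fold change of each gene (circles, ± SE, filled where called) and the median log2 fold change of its neighbouring genes (diamonds) in the 4 comparisons. MAP3K14 is set apart from its neighbours in TWEAK and Fn14 KO, while the differences of IKBKG and TBK1 in Fn14α KO lie near those of their neighbours, at -0.65 and -0.48.

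MAP3K14, the gene of NIK, was the member called after TWEAK. It had 8.53, 8.50, 10.11 and 8.24 FPKM in TWEAK, against 5.85, 5.70, 5.84 and 4.12 FPKM in WT. Every TWEAK library lay above every WT library, which was so for 1 of the 8 members and, in either direction, for 17.4% of all genes tested. The log2 fold change was 0.78 ± 0.10 (SE), or 1.72-fold, with an edgeR adjusted p of 6.12e-06. The highest TWEAK library and the lowest WT library both stood far from the rest of their groups. Without TWEAK replicate 3 the log2 fold change was 0.71 (edgeR adjusted p = 7.6e-05), and without WT replicate 4 it was 0.67 (edgeR adjusted p = 8.42e-06).

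The same gene was as high in the Fn14 KO line, which had not been given TWEAK. Fn14 KO libraries had 7.26, 9.24, 8.90 and 8.80 FPKM, all above the 4 WT libraries. The log2 fold change against WT was 0.79 ± 0.10, or 1.73-fold (edgeR adjusted p = 4.35e-07), and it was 0.68 without WT replicate 4 (edgeR adjusted p = 5.55e-07) and 0.86 without Fn14 KO replicate 1 (edgeR adjusted p = 9.57e-09). The neighbours of MAP3K14 had a median of 0.07 in this comparison, and with that removed the difference of the gene was 0.71 (edgeR adjusted p = 2.65e-06). The median over 707 tested genes of chromosome 17 was higher, at 0.27.

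Fn14α KO did not share this difference. Its libraries had 5.70, 5.78, 5.03 and 5.43 FPKM of MAP3K14, inside the range of WT. The log2 fold change against WT was -0.00 ± 0.10, with a 95% interval from -0.23 to 0.22 (edgeR adjusted p = 0.985). The neighbours of the gene were higher in this line, at a median of 0.28, and with that removed the value was -0.28 (edgeR adjusted p = 0.04). The difference between the lines was itself tested, and MAP3K14 was higher in Fn14 KO than in Fn14α KO by 0.79 ± 0.10 on the log2 scale (edgeR adjusted p = 3.33e-07), with no overlap of their libraries.

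MAP3K14 (ENSG00000006062) lies on the minus strand of chromosome 17 at 45263119 to 45317029 of GRCh38. Its promoter is shown because it belongs to the member that rose after TWEAK, and that of IKBKE because it was the member with the next largest difference there, although IKBKE did not pass. Both are the 250 bases before the RefSeq transcription start in GRCh38.p14, 5′ to 3′ on the strand of the gene, with matches to the motifs searched in capitals.
MAP3K14, chr17:45317021-45317270, minus strand: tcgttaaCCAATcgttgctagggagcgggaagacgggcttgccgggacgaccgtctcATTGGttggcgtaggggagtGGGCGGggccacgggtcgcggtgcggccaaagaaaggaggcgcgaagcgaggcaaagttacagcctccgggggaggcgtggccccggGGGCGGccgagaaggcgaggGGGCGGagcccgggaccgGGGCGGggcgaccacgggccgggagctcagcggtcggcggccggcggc
IKBKE, chr1:206470226-206470475, plus strand: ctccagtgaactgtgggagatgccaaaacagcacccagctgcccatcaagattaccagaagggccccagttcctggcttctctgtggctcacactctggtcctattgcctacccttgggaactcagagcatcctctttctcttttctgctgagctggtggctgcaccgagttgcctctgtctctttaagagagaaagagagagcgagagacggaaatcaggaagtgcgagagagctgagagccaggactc

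The MAP3K14 window was 73.6% G and C and held 2 CCAAT boxes, the second read as ATTGG on this strand, and 4 copies of GGGCGG, the core of a GC box. The IKBKE window was 54.0% G and C and held none of the motifs searched. The median over 35116 promoter windows was 58.0%. Motifs were searched on both strands and did not overlap in these windows. CCAAT occurred in 32.0% of all windows, GGGCGG in 42.6%, TATAAA in 10.7% and the NF-κB consensus site in 5.21%. RefSeq windows were matched for 7 of the 8 members, in 12 windows, and none of the 12 held the NF-κB consensus, which says only that these letters are not in these windows. CCAAT was found for RIPK1, TBK1, MAP3K14 and IKBKG, and GGGCGG for RIPK1, MAP3K7, MAP3K14 and IKBKG.

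Of the exonic bases of MAP3K14, 713 of 5784 (12.3%) are also exonic in MAP3K14-AS1 on the other strand, and no source used here gives the strand setting of the counting. MAP3K14-AS1 held 5 to 23 counts in a library and MAP3K14 375 to 908. The genes whose pattern over the 16 libraries was nearest to that of MAP3K14, chosen after its values were seen, were PLEC, AFAP1 and EHD4, on chromosomes 8, 4 and 15. Their root mean square differences from it in centred log2 CPM were 0.101, 0.134 and 0.139, where the median gene of 10757 differed by 0.466. PLEC, which encodes the cytoskeletal linker plectin, averaged 26.7, 19.3, 28.0 and 17.4 FPKM in TWEAK, Fn14α KO, Fn14 KO and WT.

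MAP3K7 encodes TAK1, the kinase that phosphorylates IKKβ (ENSG00000135341, minus strand of chromosome 6, 90513573 to 90587086, GRCh38). It had 12.28, 11.47, 11.52 and 11.35 FPKM in TWEAK and 11.17, 12.16, 12.56 and 12.63 FPKM in WT. The groups lay over each other, and the log2 fold change was 0.00, with a 95% interval from -0.15 to 0.15 (edgeR adjusted p = 1.0). In Fn14 KO the gene had 12.68, 13.88, 13.80 and 15.49 FPKM, every library above the highest WT library, the first of them only just, and it rose by 0.32 ± 0.07 on the log2 scale (edgeR adjusted p = 0.000321). Its neighbours had a median of 0.20, and 0.12 was left with that removed (edgeR adjusted p = 0.179).

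In Fn14α KO MAP3K7 had 11.25, 10.57, 9.76 and 11.11 FPKM, overlapping WT in 1 library. It fell by 0.22 on the log2 scale with an SE of 0.07 (edgeR adjusted p = 0.0124). The call was lost without Fn14α KO replicate 3, at -0.18 (edgeR adjusted p = 0.0564), and with the neighbours' median of -0.19 removed, at -0.03 (edgeR adjusted p = 0.8). Between the lines, Fn14 KO was higher by 0.54 ± 0.07 (edgeR adjusted p = 3.24e-07) with no overlap, and by 0.21 with the neighbours removed (edgeR adjusted p = 0.0139).

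RIPK1 encodes the kinase and scaffold of TNF receptor complexes that is decorated with ubiquitin chains (ENSG00000137275, plus strand of chromosome 6, 3063824 to 3115187, GRCh38). It had 1.72, 1.65, 1.47 and 1.78 FPKM in Fn14α KO, against 2.09, 2.39, 2.07 and 2.04 FPKM in WT. No library overlapped, and the gene fell by 0.41 on the log2 scale with an SE of 0.08 (edgeR adjusted p = 0.000228). Its neighbours were higher in that line, with a median of 0.26 over 59 genes, and the difference was -0.66 with this removed (edgeR adjusted p = 6.15e-07).

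In Fn14 KO RIPK1 had 2.44, 2.63, 2.52 and 2.43 FPKM, each above the 4 WT libraries. It rose by 0.34 ± 0.08 (edgeR adjusted p = 0.000776), beside a median of 0.37 for its neighbours. With that removed the value was -0.04 (edgeR adjusted p = 0.737), so the rise was no larger than that of the genes around it. Between the lines, RIPK1 was higher in Fn14 KO than in Fn14α KO by 0.74 ± 0.08 (edgeR adjusted p = 2.3e-08), and by 0.63 with the neighbours removed (edgeR adjusted p = 5.33e-07). After TWEAK it had 2.32, 2.22, 2.16 and 2.03 FPKM and overlapped WT, with a log2 fold change of 0.08 and a 95% interval from -0.09 to 0.25 (edgeR adjusted p = 0.603).

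CHUK encodes IKKα, the IKK subunit that both routes use (ENSG00000213341, minus strand of chromosome 10, 100188300 to 100229596, GRCh38). It had 6.41, 6.07, 5.4 and 5.62 FPKM in TWEAK, 6.43, 5.79, 6.33 and 6.32 in Fn14α KO, 5.39, 5.15, 5.56 and 6.28 in Fn14 KO and 6.17, 6.42, 5.37 and 7.42 in WT. All groups overlapped. It was the member that passed in none of the 4 comparisons, in the edgeR test and under every alternative run. Its log2 fold changes against WT were -0.05 in TWEAK (95% interval -0.25 to 0.14), -0.06 in Fn14α KO (-0.26 to 0.13) and -0.07 in Fn14 KO (-0.26 to 0.13), and the sign of each changed with some settings.

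IKBKB encodes IKKβ, the subunit that phosphorylates IκBα (ENSG00000104365, plus strand of chromosome 8, 42271302 to 42332460, GRCh38). It had 6.60, 6.42, 6.26 and 6.24 FPKM in Fn14 KO, against 5.92, 6.24, 5.69 and 5.47 in WT, so that the lowest Fn14 KO library equalled the highest WT library. The log2 fold change was 0.25 ± 0.06 (edgeR adjusted p = 0.00136) with TMM scaling, and 0.13 (edgeR adjusted p = 0.0794) with scaling by total counts. The median of all genes in this comparison was -0.01 with TMM and -0.12 with total counts. With the neighbours' median of 0.05 removed, IKBKB was at 0.20 (edgeR adjusted p = 0.0117). Levels were close in TWEAK, at 5.78, 6.43, 5.97 and 5.61 FPKM, and in Fn14α KO, at 6.10, 5.97, 6.08 and 6.01, and the 95% intervals of their log2 fold changes against WT ran from -0.04 to 0.22 and from -0.11 to 0.15. Between the lines, Fn14 KO was higher by 0.23 ± 0.06 (edgeR adjusted p = 0.00239), and by 0.08 with total counts (edgeR adjusted p = 0.283).

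IKBKG encodes NEMO, the ubiquitin-binding scaffold that canonical IKK signalling requires (ENSG00000269335, plus strand of chromosome X, 154541199 to 154565046, GRCh38). It had 0.82, 0.95, 0.96 and 1.07 FPKM in Fn14α KO, against 1.82, 1.69, 1.71 and 1.51 FPKM in WT. No library overlapped, and the log2 fold change was -0.85 ± 0.13 (edgeR adjusted p = 8.72e-06), the largest fall of a member in the 3 comparisons with WT. The fall was shared by the genes around it: 61 neighbours had a median of -0.65 and 389 tested genes of the X chromosome a median of -0.69. With the neighbours' median removed, -0.20 was left (edgeR adjusted p = 0.24).

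Fn14 KO libraries had 2.17, 1.76, 1.69 and 1.52 FPKM of IKBKG and overlapped WT, with a log2 fold change of 0.20 and a 95% interval from -0.06 to 0.46 (edgeR adjusted p = 0.163). TWEAK libraries had 1.68, 1.5, 1.80 and 1.48 FPKM, with a log2 fold change of 0.00 and an interval from -0.26 to 0.26 (edgeR adjusted p = 0.995). Fn14 KO was higher than Fn14α KO by 1.05 ± 0.13, or 2.08-fold (edgeR adjusted p = 1.71e-07), and by 0.25 with the neighbours' median of 0.80 removed (edgeR adjusted p = 0.112).

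IKBKG rested on 68 to 176 counts in a library, the fewest of the members, and its reads are hard to assign. All 1043 words of 31 bases in the transcripts of the pseudogene IKBKGP1 also occur in IKBKG, where they make up 27.9% of 3744 words, and IKBKGP1 was listed with 2 to 15 counts. The 3 genes with patterns nearest to that of IKBKG were SPRYD3 and SMAGP on chromosome 12 and FAM3A on chromosome X, at root mean square differences of 0.119, 0.124 and 0.126, where the median of 10758 genes was 0.468.

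IKBKE encodes IKKε, an IKK-related kinase known to be inducible by NF-κB (ENSG00000263528, plus strand of chromosome 1, 206470476 to 206496889, GRCh38). It had 2.31, 2.55, 2.19 and 2.62 FPKM in Fn14α KO, against 4.03, 3.28, 3.57 and 3.53 FPKM in WT. The groups did not overlap, and the gene fell by 0.61 on the log2 scale with an SE of 0.11 (edgeR adjusted p = 5.71e-05). Its neighbours had a median of 0.06 there and the difference was -0.67 with this removed (edgeR adjusted p = 3.03e-05), so that IKBKE and RIPK1 were the members whose fall in Fn14α KO was not shared by the genes around them.

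In Fn14 KO IKBKE had 3.42, 4.26, 3.86 and 3.54 FPKM and overlapped WT, with a log2 fold change of 0.19 ± 0.10 (edgeR adjusted p = 0.126). The genes around it were higher in that line, at a median of 0.47, and with this removed the value turned to -0.28 (edgeR adjusted p = 0.0269). Between the lines, Fn14 KO was higher by 0.79 ± 0.11 (edgeR adjusted p = 6.94e-07) with no overlap, and by 0.40 with the neighbours removed (edgeR adjusted p = 0.0033). In TWEAK IKBKE had 3.66, 4.15, 4.69 and 4.39 FPKM, 3 of them above the highest WT library. The log2 fold change was 0.29 ± 0.10, with a 95% interval from 0.07 to 0.51, and did not pass the adjustment (edgeR adjusted p = 0.0853, and 0.0512 to 0.283 over the alternatives run).

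TBK1, the gene of the kinase that phosphorylates IRF3 downstream of STING and MAVS, lies on the plus strand of chromosome 12 (ENSG00000183735, 64452090 to 64502114, GRCh38). It had 3.10, 2.72, 3.04 and 2.75 FPKM in Fn14α KO, against 3.86, 3.69, 3.57 and 3.71 FPKM in WT. The groups did not overlap and the gene fell by 0.38 on the log2 scale with an SE of 0.08 (edgeR adjusted p = 0.000411). The 628 tested genes of chromosome 12 had a median of -0.48 in this comparison, as did the neighbours of TBK1, and with that removed the value was 0.10 (edgeR adjusted p = 0.352).

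TBK1 had 2.83, 3.42, 3.02 and 3.83 FPKM in Fn14 KO and 3.76, 3.76, 3.59 and 3.43 FPKM in TWEAK. Both groups overlapped WT, and the 95% intervals of their log2 fold changes against WT ran from -0.23 to 0.11 and from -0.14 to 0.20. Fn14 KO was higher than Fn14α KO by 0.32 ± 0.08 (edgeR adjusted p = 0.00127), but their libraries overlapped, the value was 0.17 with total counts (edgeR adjusted p = 0.0697), and it was -0.18 with the neighbours' median of 0.51 removed (edgeR adjusted p = 0.0618).

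With the neighbours' median removed, 3 of the 8 members were called in Fn14α KO, where 31.5% of all genes were: RIPK1 and IKBKE as before, and MAP3K14, which was lower only then. In Fn14 KO 3 were called, where 41.5% of all genes were: MAP3K14 and IKBKB, higher, and IKBKE, lower. Between the lines 5 were called, where 47.8% of all genes were. Groups did not overlap for 4 members in Fn14α KO against WT (39.6% of all genes), 3 in Fn14 KO against WT (44.0%) and 6 between the lines (51.4%).

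The genes around the kinases were read from 7 lists of 85 genes, of which 82 were tested. After TWEAK 24 of the 82 rose and 1 fell, where 4.82% of all genes tested were higher and 2.05% lower. In Fn14α KO 19 rose and 30 fell, where 20.0% of all genes were higher and 22.2% lower, and in Fn14 KO 21 rose and 39 fell, where 26.6% were higher and 26.3% lower. With so many genes called in the knockout lines, a count of a list there says little about the list, and the counts below are to be read against these shares. At an unadjusted p under 0.05, edgeR had 34 higher and 5 lower after TWEAK. DESeq2 gave 26 and 2 for TWEAK, 19 and 30 for Fn14α KO and 21 and 39 for Fn14 KO.

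**Figure D3:**
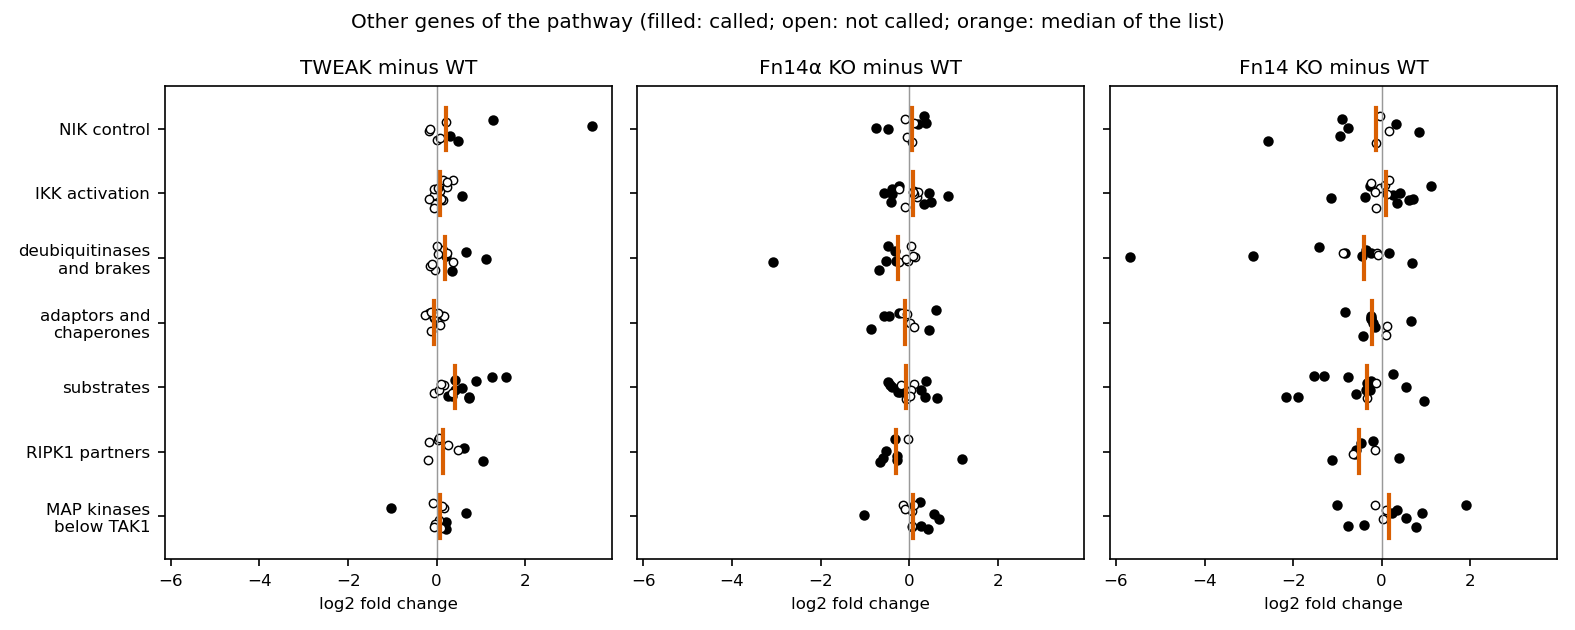
Log2 fold change of each tested gene of the 7 lists (points, filled where called) and the median of each list (bar) in TWEAK, Fn14α KO and Fn14 KO, each minus WT. The substrates list has its median at 0.41 after TWEAK and at -0.33 in Fn14 KO, and the point farthest to the left is TNIP3, at 0.005 FPKM in Fn14 KO and 0.358 in WT.

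Of the 9 measured genes that control NIK, 4 rose after TWEAK, at a list median of 0.21. None fell in edgeR, at an unadjusted p under 0.05 or in DESeq2. BIRC3, which encodes the NIK-ubiquitinating ligase cIAP2, averaged 48.2 FPKM in TWEAK and 4.44 in WT, a log2 fold change of 3.50 ± 0.11 (edgeR adjusted p = 1.48e-16). BIRC2, the gene of cIAP1, rose by 1.27 ± 0.08 to 37.2 FPKM in TWEAK, against 16 in WT (edgeR adjusted p = 3.15e-11), and TRAF2, the adaptor that carries them, by 0.49 ± 0.09 (edgeR adjusted p = 0.000896). The remaining gene, named after its value was seen, was TRAF3, the subunit that binds NIK, at 0.30 (edgeR adjusted p = 0.0144). MAP3K14 and these genes of its ubiquitin ligase were thus higher in the same libraries.

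In Fn14 KO 2 of the 9 genes rose and 4 fell, where 26.6% of all genes were higher and 26.3% lower, and with the neighbours removed 1 was higher and 5 lower. BIRC3 averaged 0.698 FPKM in Fn14 KO and 4.44 in WT (log2 fold change -2.56 ± 0.13, edgeR adjusted p = 1.28e-13). TRAF3 averaged 2.91 FPKM in Fn14 KO and 5.36 in WT (-0.77 ± 0.08, edgeR adjusted p = 1.54e-08). USP9X, a deubiquitinase, rose by 0.84 (edgeR adjusted p = 2.49e-09), and by 0.36 with its neighbours' median of 0.49 removed. TRAF3IP2, PELI1 and OTUB1, named after their values were seen, were the others called, at -0.90, -0.93 and 0.32 (edgeR adjusted p = 2.47e-07, 4.99e-07 and 0.000177). With the neighbours removed PELI1 was at -0.55 (edgeR adjusted p = 0.000562), and OTUB1 lost the call at 0.12 (edgeR adjusted p = 0.137). In this line MAP3K14 was higher while BIRC3 and TRAF3 were lower. BIRC2 and TRAF2, which encode the other parts of that ligase, did not pass there, at -0.12 and -0.04 (edgeR adjusted p = 0.225 and 0.761). The Fn14 KO libraries of BIRC2 nevertheless all lay below those of WT in FPKM, while those of TRAF2 overlapped WT. In Fn14α KO 3 rose and 2 fell, among them BIRC2, which rose by 0.34 (edgeR adjusted p = 0.00124), TRAF2, which fell by 0.48 (edgeR adjusted p = 0.000235), and TRAF3IP2, which fell by 0.75 (edgeR adjusted p = 5.01e-06). With its neighbours removed TRAF2 was at -0.26 (edgeR adjusted p = 0.0407). BIRC3 and USP9X, named after their values were seen, rose there by 0.37 and 0.21 (edgeR adjusted p = 0.00616 and 0.0314), and USP9X lost the call with its neighbours removed, at 0.10 (edgeR adjusted p = 0.341). BIRC3 was lower in Fn14 KO than in Fn14α KO by 2.94 on the log2 scale (edgeR adjusted p = 7.2e-15) and TRAF3 by 0.68 (edgeR adjusted p = 9.91e-08), and PELI1, a ubiquitin ligase, by 1.05 (edgeR adjusted p = 5.47e-08), with PELI1 at -0.56 once its neighbours' median of -0.50 was removed.

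**Figure D4:**
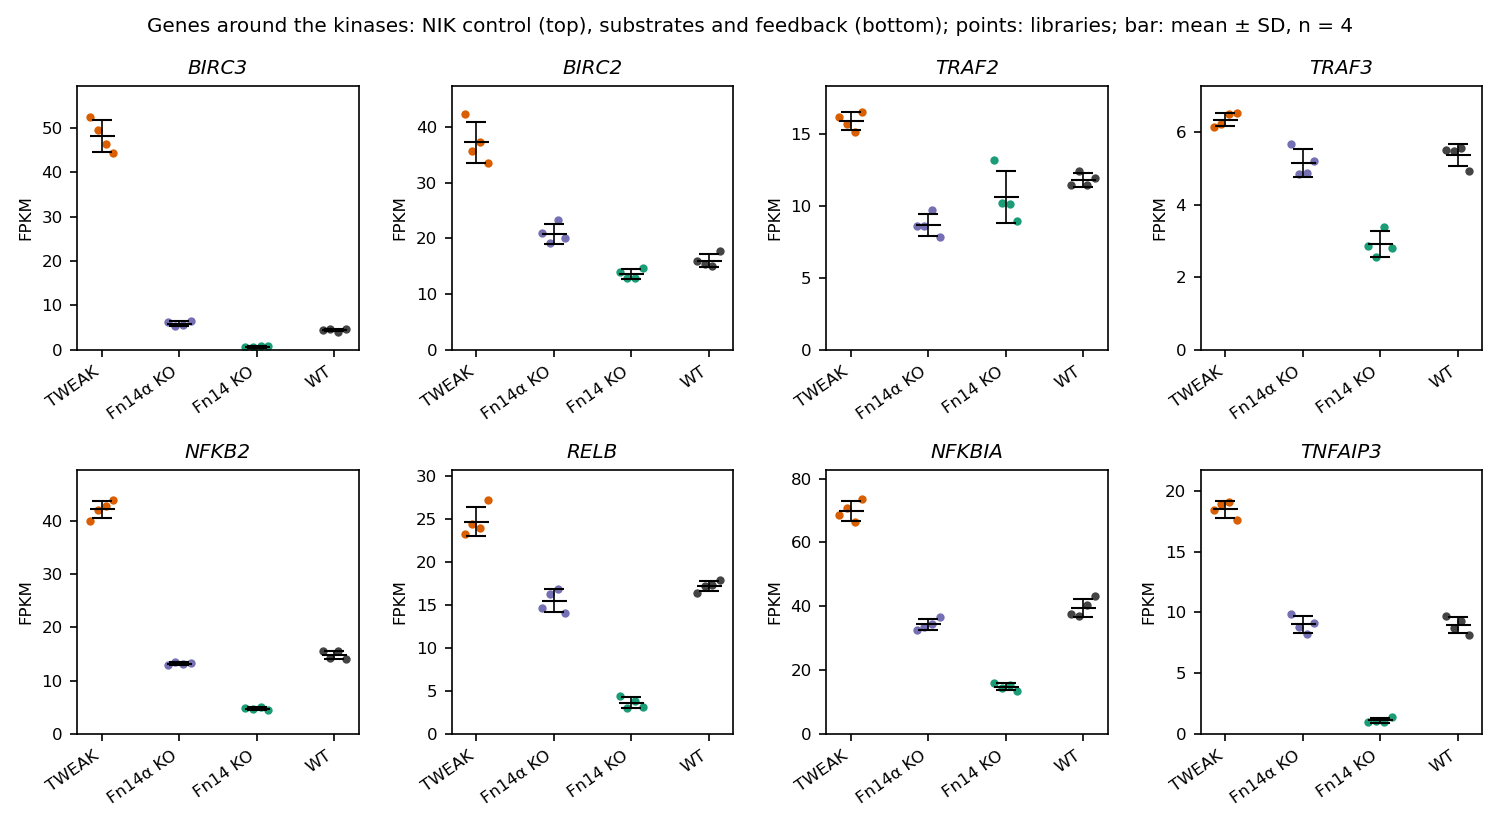
FPKM (vertical axis, from 0) of 4 genes of the NIK-controlling complex (top) and of substrates and feedback genes (bottom) in each library, with the mean ± SD. BIRC3, NFKB2 and TNFAIP3 are highest in TWEAK, at 48.2, 42.2 and 18.5 FPKM, and lowest in Fn14 KO, at 0.698, 4.73 and 1.09 FPKM.

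Of the 15 measured substrates of the kinases, 10 rose after TWEAK and none fell, also at an unadjusted p under 0.05 and in DESeq2, while in Fn14 KO 3 rose and 10 fell. NFKB2, whose p100 product is processed to p52 once IKKα has phosphorylated it, averaged 42.2 FPKM in TWEAK and 14.8 in WT (log2 fold change 1.57 ± 0.06, edgeR adjusted p = 4.48e-15). It averaged 4.73 FPKM in Fn14 KO, also against 14.8 in WT (-1.53 ± 0.06, edgeR adjusted p = 1.79e-15). RELB, the partner of p52, averaged 3.59 FPKM in Fn14 KO and 17.2 in WT (-2.15 ± 0.10, edgeR adjusted p = 1.31e-14). NFKBIA and NFKBIE, which encode IκBα and IκBε, rose after TWEAK by 0.88 and 1.26 (edgeR adjusted p = 1.36e-09 and 2.23e-10). STING1, the adaptor upstream of TBK1, fell by 1.89 in Fn14 KO (edgeR adjusted p = 1.05e-14) and by 0.39 in Fn14α KO (edgeR adjusted p = 0.000327).

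The 3 that rose in Fn14 KO, named after their values were seen, were RELA, MAVS and FOXO3, at 0.26, 0.54 and 0.95 (edgeR adjusted p = 0.0206, 6.89e-07 and 3.88e-11). Of these, only FOXO3 was still higher with the neighbours removed. RELA then lost the call, at 0.11 (edgeR adjusted p = 0.353), and MAVS, whose neighbours had a median of 0.74, turned to -0.20 and was called lower (edgeR adjusted p = 0.0258). In Fn14α KO 4 substrates rose and 6 fell, and with the neighbours removed 2 were higher and 7 lower. NFKB1 fell by 0.44 (edgeR adjusted p = 5.58e-05), and was at -0.21 with its neighbours' median of -0.23 removed (edgeR adjusted p = 0.0395). SQSTM1, the autophagy receptor p62, fell by 0.47 (edgeR adjusted p = 1.97e-05). Between the lines 2 were higher in Fn14 KO and 10 lower, where 30.7% and 28.5% of all genes were, among them NFKB2 at -1.34, RELB at -1.96 and STING1 at -1.5 (edgeR adjusted p = 1.91e-14, 6.68e-14 and 8.17e-13). With the neighbours removed 1 was higher and 9 lower.

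Of the 12 deubiquitinases and other brakes on IKK, 4 rose after TWEAK, 6 fell in Fn14α KO, and 2 rose and 7 fell in Fn14 KO. The 2 higher calls became 1 without Fn14 KO replicate 4, without WT replicate 3 and with the neighbours removed. None fell after TWEAK and none rose in Fn14α KO, in edgeR, at an unadjusted p under 0.05 or in DESeq2. TNFAIP3, the gene of the ubiquitin-editing enzyme A20, averaged 18.5 FPKM in TWEAK and 8.96 in WT (1.11 ± 0.08, edgeR adjusted p = 5.69e-10), and 1.09 FPKM in Fn14 KO (-2.91 ± 0.10, edgeR adjusted p = 2.61e-17). TNIP1 and TNIP2, which encode A20-binding proteins, rose after TWEAK by 0.34 and 0.66 (edgeR adjusted p = 0.000281 and 9.85e-06), and TNIP1 fell by 0.48 in Fn14α KO and by 1.41 in Fn14 KO (edgeR adjusted p = 4.23e-07 and 1.79e-15). CYLD, which removes ubiquitin chains from NEMO and RIPK1, was the remaining rise after TWEAK, at 0.22 (edgeR adjusted p = 0.0372), and fell by 0.83 in Fn14 KO (edgeR adjusted p = 1.46e-10). OTULIN, which cleaves linear chains, fell by 0.52 in Fn14α KO (edgeR adjusted p = 2.75e-07), and was at -0.23 with its neighbours' median of -0.29 removed (edgeR adjusted p = 0.0064). USP4, another deubiquitinase, fell there by 0.67 (edgeR adjusted p = 3.36e-08). USP4 was higher in Fn14 KO than in Fn14α KO by 1.34 (edgeR adjusted p = 4.69e-14), and by 0.73 with its neighbours' median of 0.61 removed.

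Of the 16 genes that feed IKK activation, 1 rose after TWEAK: TAB2, a ubiquitin-binding partner of TAK1, by 0.57 ± 0.08 (edgeR adjusted p = 1.46e-05). In Fn14α KO 4 of the 16 rose and 5 fell, where 42.2% of all genes were called. The 5 lower calls became 2 without Fn14α KO replicate 1 or WT replicate 2, and 3 without Fn14α KO replicate 3 or 4, without WT replicate 3 or 4 and with the neighbours removed. MAP3K1 was higher by 0.88 ± 0.11 (edgeR adjusted p = 4.76e-07). SHARPIN, a subunit of the linear ubiquitin ligase, was higher there by 0.33 (edgeR adjusted p = 0.00559), and lost the call with its neighbours removed (0.11, edgeR adjusted p = 0.388). UBE2N, which builds the chains that recruit TAK1, was lower by 0.38 (edgeR adjusted p = 8.04e-06), but higher by 0.20 with its neighbours' median of -0.58 removed (edgeR adjusted p = 0.0108). In Fn14 KO 6 rose and 3 fell, and the lower count was 1 without Fn14 KO replicate 2 and 6 with total counts. The genes of the TAK1 partners TAB1 and TAB3 rose by 0.62 and 0.71 (edgeR adjusted p = 2.22e-07 and 1.09e-06) and TRAF5 by 1.12 (edgeR adjusted p = 2.1e-09), and TAB1 lost the call with its neighbours' median of 0.45 removed (0.17, edgeR adjusted p = 0.0695). TAB3 was at 0.33 with its neighbours' median of 0.38 removed (edgeR adjusted p = 0.00717).

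None of the 10 adaptors and chaperones of the IKK and IKK-related kinases passed after TWEAK in edgeR or DESeq2, with 2 lower at an unadjusted p under 0.05 in edgeR and 2 called lower with total counts. In Fn14α KO 2 rose and 4 fell, and with the neighbours removed 1 was higher and 3 lower. In Fn14 KO 1 rose and 7 fell, a lower count that became 3 without Fn14 KO replicate 3, 4 without WT replicate 4 and 2 with the neighbours removed. The higher count was 2 without WT replicate 4 and 0 with the neighbours removed. OPTN, the gene of optineurin, which binds TBK1, fell by 0.82 in Fn14 KO (edgeR adjusted p = 4.99e-10) and by 0.56 in Fn14α KO (edgeR adjusted p = 3.6e-07), the second of these becoming -0.17 with its neighbours removed (edgeR adjusted p = 0.0549). TBKBP1, a TBK1 adaptor, fell by 0.42 in Fn14 KO (edgeR adjusted p = 0.000576). AZI2, another, was higher there by 0.66 (edgeR adjusted p = 1.11e-06) and at -0.14 with its neighbours' median of 0.81 removed (edgeR adjusted p = 0.224). HSP90AB1, a chaperone of IKK, averaged 818 FPKM in Fn14α KO and 587 in WT (0.45, edgeR adjusted p = 5.48e-06), and 0.14 was left with its neighbours removed (edgeR adjusted p = 0.105). IKBIP, a gene of chromosome 12, fell by 0.86 in Fn14α KO (edgeR adjusted p = 6.09e-09), and was at -0.31 with its neighbours' median of -0.55 removed.

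Of the 8 measured partners of RIPK1, 2 rose after TWEAK, 1 rose and 6 fell in Fn14α KO, and 1 rose and 5 fell in Fn14 KO. CFLAR, the gene of the caspase-8 inhibitor cFLIP, rose by 1.04 ± 0.06 after TWEAK (edgeR adjusted p = 2.15e-11), and TICAM1, the TLR3 adaptor TRIF, by 0.61 (edgeR adjusted p = 7.18e-05). CASP8, which cleaves RIPK1, averaged 5.74 FPKM in Fn14α KO and 5.27 in Fn14 KO, against 8.53 in WT, falling by 0.60 and 0.58 (edgeR adjusted p = 9.51e-08 and 1.02e-07). MLKL, the effector of necroptosis, fell by 0.65 in Fn14α KO and by 0.61 in Fn14 KO (edgeR adjusted p = 4.5e-06 and 6.63e-06). RIPK1 itself fell in the first of these lines and rose in the second. FADD, which links RIPK1 to caspase-8, was higher in Fn14 KO than in Fn14α KO by 0.66 (edgeR adjusted p = 9.21e-08).

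Of the 12 kinases of the MAP kinase branch below TAK1, 3 rose and 1 (MAP2K6, at 0.0725 FPKM in TWEAK and 0.16 in WT) fell after TWEAK, 5 rose and 1 fell in Fn14α KO, and 6 rose and 3 fell in Fn14 KO. With the neighbours removed 3 were higher and 3 lower in Fn14α KO, and 3 higher and 4 lower in Fn14 KO. The 3 rises after TWEAK became 1 with total counts, and also without any 1 of replicates 2, 3 and 4 of TWEAK or of WT. MAP2K3, the gene of a kinase that phosphorylates p38, rose by 0.67 after TWEAK (edgeR adjusted p = 2.37e-07) and fell by 0.76 in Fn14 KO (edgeR adjusted p = 3.21e-09). The other named rises after TWEAK, MAPK8 and MAPKAPK2, were 0.21 each (edgeR adjusted p = 0.0352 and 0.0349). With 1 replicate left out at a time, MAPK8 lost its call in 8 of 8 fits and MAPKAPK2 in 6 of 8. Both calls were also lost with total counts, with limma, with no filter on low counts and with the replicate block. MAPK8 and MAPK9, which along with MAPK10 are JNK genes, rose by 0.77 and 0.90 in Fn14 KO (edgeR adjusted p = 1.91e-10 and 8.58e-11). MAPK9 was at 0.38 with its neighbours' median of 0.52 removed. MAP2K4, the gene of a kinase that phosphorylates JNK, rose by 0.68 in Fn14α KO (edgeR adjusted p = 6.22e-09). MAPK14, a p38 gene, was higher there by 0.27 (edgeR adjusted p = 0.00128) and at -0.11 with its neighbours' median of 0.38 removed (edgeR adjusted p = 0.18).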

How the data were processed

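The deposited table holds raw read counts per Ensembl gene and FPKM values. Per the file headers and values, the authors made the FPKM from those counts, each gene's exonic size and the library total. The submitters' processing notes name HTSeq 0.6.1, HISAT2 2.0.1, cutadapt 1.9.1, FastQC 0.10.1 and DESeq2, and the builds GRCh38.p13 and hg38. No source used here gives the strand setting, the annotation release or the handling of multiply mapped reads.

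Counts of all 16 libraries were tested with edgeR 4.0.16 in R 4.3.3 (quasi-likelihood, two-sided, TMM scaling, filterByExpr, 1 mean per group). The Benjamini-Hochberg adjustment ran over 16029 genes, and a gene was called at 0.05. FPKM are scaled by library totals and folds by TMM, so the 2 can differ. Intervals use 12 degrees of freedom and cover the spread between libraries. Neighbours were the nearest tested genes with a mean log2 CPM of at least 2, up to 50 on each side. To remove their median, the test was run on counts offset by it. Replicate pairs differed by 2.399 to 42.88 chi-square per degree of freedom, so each library was counted by itself. Alternatives used DESeq2 1.42.0, limma 3.58.1 on log2(FPKM + 0.1) and log2(FPKM + 1), other scalings, filters and left-out libraries. The procedure was tested on simulated data. Promoter windows came from RefSeq (GRCh38.p14), and lengths and shared sequence from the annotation.

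The members and lists were chosen with earlier results of these data known. From each list, up to 3 called genes with the smallest adjusted p and at least 2 FPKM in a group were named per comparison. For members called with a difference of at least 1 on the log2 scale in either direction, the 3 genes of nearest pattern were named.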

Additional observations from a re-analysis of the deposited data

Results flagged for a closer look

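Within-group gaps were examined for the 8 genes and TNFRSF12A in FPKM, which made 36 groups of 4 libraries, and 3 held a library far from the others. Chance alone gives about 1 such group in 20. MAP3K14 stood at 10.11 FPKM in TWEAK replicate 3 and at 4.12 FPKM in WT replicate 4. RIPK1 stood at 2.39 FPKM in WT replicate 2, and without that library its log2 fold change was -0.35 in Fn14α KO and 0.39 in Fn14 KO (edgeR adjusted p = 0.00183 and 0.000399).

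The effects of the knockouts against WT differed from each other for 7 genes, by the edgeR test of Fn14 KO minus Fn14α KO, which is also the difference of the effects since both share WT. The differences on the log2 scale were 0.79 for MAP3K14, 0.54 for MAP3K7, 0.74 for RIPK1, 0.23 for IKBKB, 1.05 for IKBKG, 0.79 for IKBKE and 0.32 for TBK1. Those of IKBKG and TBK1 were no longer called with the median of the neighbouring genes removed.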

How the results depend on the processing

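The counts of called genes kept within 1.5 times of their value under every setting run, with 1 exception: in Fn14α KO, 3 members were called with the neighbours' median removed, against 5. Of 568 alternative values of the members' fold changes, 501 kept direction and side of the threshold, 53 changed sign, 13 lost a call and 1 gained one. TNFRSF12A kept both in 71 of 71. Of 1353 values of named list genes, 1320 kept both, 30 lost the call and 3 changed sign, and of 994 list counts 76 moved by over 1.5 times. These alternatives for TNFRSF12A and the lists were chosen after seeing the data.

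With total counts in place of TMM, the share of called genes that were higher was 43.9% after TWEAK (70.2% with TMM), 36.0% in Fn14 KO (50.2%) and 37.3% between the lines (51.9%), and the median of all genes was -0.07, -0.12 and -0.15. After TWEAK, values near 0 changed sign: MAP3K7 was -0.06 with total counts and limma at FPKM + 0.1, -0.05 with FPKM + 1, -0.01 with no filter and -0.00 with only the 2 groups. IKBKG was -0.06, -0.06, -0.04 and -0.00 in the first 4 of these, and TBK1 -0.03, -0.03 and -0.02 in the first 3. MAP3K14 in Fn14α KO was 0.03, 0.04 and 0.03 in those 3. CHUK between the lines was 0.01 with no filter. Without WT replicate 4 and Fn14 KO replicate 1, CHUK was 0.04 after TWEAK, 0.03 in Fn14α KO, 0.04 in Fn14 KO and 0.01 between the lines, IKBKG -0.04 after TWEAK, IKBKB -0.01 in Fn14α KO and TBK1 0.01 in Fn14 KO. With the neighbours removed, IKBKB was -0.02, TBK1 0.10, MAPK14 -0.11 and UBE2N 0.20 in Fn14α KO. RIPK1 was -0.04, CHUK 0.05, IKBKE -0.28, AZI2 -0.14 and MAVS -0.20 in Fn14 KO (the last not among the 1353 values), and CHUK 0.17 and TBK1 -0.18 between the lines. With 1 replicate left out at a time, CHUK ran from -0.12 to 0.04 after TWEAK, -0.13 to 0.03 in Fn14α KO, -0.14 to 0.02 in Fn14 KO and -0.06 to 0.04 between the lines, MAP3K7 and IKBKG after TWEAK from -0.04 to 0.02 and -0.05 to 0.04, MAP3K14 and IKBKB in Fn14α KO from -0.11 to 0.04 and -0.01 to 0.05, and TBK1 in Fn14 KO from -0.14 to 0.00. The cause was not tested.

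Replicate numbers did not pair the libraries: same-numbered libraries correlated at -0.523 to 0.292 in their deviations, and 4 of 32 correlated best with their own number. The replicate block left the members called at 1 after TWEAK, 5 in Fn14α KO, 4 in Fn14 KO and 7 between the lines, and changed the sign of IKBKG after TWEAK (-0.00) and of MAP3K14 in Fn14α KO (0.00), both near 0. All genes called with the block were 893 after TWEAK, 6454 in Fn14α KO, 8205 in Fn14 KO and 9241 between the lines. Depth limited IKBKG most, with 68 to 176 counts in a library and the widest intervals of the 8 genes.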
